A study of Mus musculus with 30 samples.

Results

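RNA recovered with an antibody against nucleolin from axoplasm of crushed mouse sciatic nerve was compared with the RNA of the input. Axoplasm is the soluble content ground and pressed out of the nerve, and it holds material of axons and of the cells around them. The injured groups, all taken 7 days after a crush, were the nucleolin immunoprecipitate (IP), a blocked IP, in which the antibody first met its blocking peptide, and the input. The same groups from uncrushed, naive nerve were used where injury is mentioned. Each group had 3 libraries, described by the submitters as independent biological repeats, and each library pooled 10 nerves. They belong to 30 libraries in 10 groups; strain and age of the mice were not given. All IPs, blocked ones included, used Protein G beads that had been coated with salmon sperm DNA. Transcripts were taken if both deposited count tables listed them: 13025 of the 15841 in the table of injured nucleolin libraries and of the 15006 in the table of inputs. Of these, 12840 had enough counts to be tested.

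Nucleolin is an abundant protein of the nucleolus, where it takes part in making ribosomal RNA and ribosomes. It binds RNA through RNA recognition motifs and an arginine- and glycine-rich tail, and outside the nucleus it is known to bind AU-rich and G-rich elements that set the stability or translation of mRNAs. In sensory axons it is known to link mRNAs such as Kpnb1, which encodes importin beta 1, to kinesin transport. Recovery over input asks which RNAs are over-represented in the pull-down relative to the starting extract. Recovery of the same RNA in the blocked IP measures what the beads and antibody hold by other routes.

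The 3 IP libraries held 14041968, 11486630 and 14009596 counts over the joined transcripts, and the 3 inputs 7520858, 12193354 and 13294030. No 2 libraries agreed within sampling noise, the smallest chi-square per degree of freedom being 67.7. IP library 3 stood apart from the other 2 IPs: its log2(CPM + 1) values correlated at 0.960 with input 3 and 0.958 with blocked IP 3, against 0.884 with IP 1 and 0.921 with IP 2. IP 1 and IP 2 correlated at 0.934. In input 1, transcripts such as Yam1, Lars2 and Rpph1 reached levels that input 2 and input 3 did not match, as given below. Counts of calls are therefore also given without single libraries. Genes listed for macrophages and for neurons were detected in the input. Levels are given as CPM, counts scaled to a common library size. Cd68, a macrophage protein, stood at 331 ± 49.7 CPM (SD, n = 3). Neuron genes were present at low level, with a sum of 344, 256 and 241 CPM in the inputs over the 9 tested. Nefl, a neurofilament subunit, stood at 16.8 ± 3.94 CPM. The 30 tested axonal mRNAs were not low as a set, with a sum of 33760, 31407 and 30668 CPM in the inputs. Whether this RNA came from axons or from the cells around them was not tested.

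Of the 12 most enriched transcripts, 6 held an unbroken run of the dinucleotide CA of at least 24 bases, and in the other 6 the longest run measured 6 to 21 bases. The following windows of 30 bases are the starts of such runs in transcripts named in the results. They are written 5′ to 3′ on the transcript's strand, from the GENCODE transcript sequences, with GRCm38 positions. Capitals mark the CA run, which goes on past the window where it is longer, and lower case its flank. The first 6 are from the 12 most enriched transcripts and the other 4 from genes of Schwann cells and matrix.
Magee2, 3′ UTR, minus strand, chrX:104855111-104855140: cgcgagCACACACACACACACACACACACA
Tspan18, 3′ UTR, minus strand, chr2:93201930-93201959: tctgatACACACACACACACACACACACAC
Proser3, 3′ UTR, minus strand, chr7:30539180-30539209: caacacCACACACACACACACACACACACA
Pdlim1, retained-intron transcript, minus strand, chr19:40248500-40248529: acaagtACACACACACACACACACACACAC
Pkd2, retained-intron transcript, plus strand, chr5:104493448-104493477: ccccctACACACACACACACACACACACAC
N6amt1, 3′ UTR, plus strand, chr16:87365170-87365199: acacacCACACACACACACACACACACACA
Bgn, 3′ UTR, plus strand, chrX:73495464-73495493: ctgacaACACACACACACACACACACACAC
Ncam1, 3′ UTR, minus strand, chr9:49505321-49505350: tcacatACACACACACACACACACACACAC
Ngfr, 3′ UTR, minus strand, chr11:95569824-95569853: caacacCACACACACACACACACACACACA
L1cam, 3′ UTR, minus strand, chrX:73854340-73854369: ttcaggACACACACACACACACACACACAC
The unbroken runs measured 41 bases in Magee2, 50 in Tspan18, 42 in Proser3, 50 in Pdlim1, 45 in Pkd2 and 41 in N6amt1. In the other group they measured 50 bases in Bgn, 38 in Ncam1, 32 in Ngfr and 44 in L1cam.

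In the IP over input, 772 transcripts were higher (6.01% of 12840) and 291 were lower (2.27%), 8.28% in all, with an adjusted p (Benjamini-Hochberg) under 0.05 in the quasi-likelihood test of edgeR. With the replicate numbers as a block the counts were 905 higher and 546 lower. All 3 IP libraries lay above all 3 inputs for 2262 transcripts (17.6%) and below all 3 for 1756 (13.7%). Scaling to library totals gave 1173 higher and 13 lower, because it moved the median log2 difference of all transcripts to 0.57, against 0.10 here. The lower calls are thus relative to the bulk of transcripts. Without IP 3 there were 1657 higher and 1397 lower. Leaving out IP 1, IP 2, input 1, input 2 or input 3 instead gave 305, 225, 258, 186 and 312 higher and 34, 4, 18, 10 and 80 lower.

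The blocked IP differed from input in 1 transcript, which was higher (0.00771% of 12970 tested), and in 0 that were lower (0%), although 1938 had an unadjusted p under 0.05. DESeq2 called 610 higher and 239 lower there, and the replicate block 50 and 3. Directly compared with blocked IP, the IP was higher in 117 transcripts (0.902% of 12970) and lower in 0 (0%), with 1318 at an unadjusted p under 0.05. DESeq2 called 534 higher and 50 lower, and the fit with the replicate block called 0. A transcript could be listed through the IPs alone, with at least 5 counts in all 3, whatever its blocked counts. Of the 13025 joined transcripts, 12617 had such IP counts. Transcripts near 0 in the blocked IPs could thus enter only through the IPs. Blocked libraries 1 and 2 listed 15.8% and 6.89% of the joined transcripts at 0 counts, against 0.253% in blocked library 3. The comparisons with blocked IP thus had the wider spread. On simulated counts the test recovered 37 of 50 transcripts set 2 log2 units higher in IP than input, and 18 of 50 in IP over blocked IP.

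The transcripts with the largest enrichment were low or moderate in the input and high in the IP. Tspan18, which encodes a tetraspanin membrane protein (chr2:93201760-93334487, minus strand, 10 exons), had 4097, 1912 and 482 CPM in the IPs, 114, 48.5 and 48.4 CPM in the blocked IPs, and 27.6, 34.0 and 55.2 CPM in the inputs. Every IP lay above every other library, and IP 3 was the lowest of the 3 IPs. The log2 fold change over input was 5.79 with an SE of 0.71 (adjusted p 0.00258 by edgeR), and over blocked IP it was 4.94 (adjusted p 0.0169, not called with the replicate block). Pkd2 encodes the calcium-permeable channel polycystin 2, and the transcript listed is a retained-intron form (chr5:104492771-104501349). It had 4264, 1835 and 626 CPM in the IPs, 64.9, 54.6 and 48.6 CPM in the blocked IPs, and 51.2, 40.3 and 94.8 CPM in the inputs. Here the blocked IPs overlapped the inputs, and the log2 fold change of IP over input was 5.17 with an SE of 0.67 (adjusted p 0.00258).

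The other 10 of the 12 most enriched transcripts had log2 fold changes of 5.01 to 6.62. Magee2, a single-exon gene of the X chromosome and a member of the MAGE family, had 70.3, 25.6 and 6.10 CPM in the IPs, 0.261, 0 and 0 CPM in the blocked IPs, and 0.288, 0.583 and 0.426 CPM in the inputs. Its fold over input rests on very low input values (log2 6.18, SE 0.91, adjusted p 0.0033). Proser3 had 994, 552 and 87.4 CPM in the IPs, 52.3, 42 and 18.1 CPM in the blocked IPs, and 10.9, 17.8 and 10.6 CPM in the inputs (log2 5.37, adjusted p 0.00276). A retained-intron transcript of Pdlim1, a gene for a PDZ and LIM domain protein of actin fibres, had 697, 319 and 88.7 CPM in the IPs, 16.3, 7.34 and 4.91 CPM in the blocked IPs, and 11.8, 6.02 and 9.80 CPM in the inputs. In these 3 transcripts IP 3 was the lowest IP. The blocked IPs lay below all inputs for Magee2, overlapped them for Pdlim1 and lay above all of them for Proser3.

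N6amt1, a protein methyltransferase gene, had 280 CPM in IP 1 but 54.3 and 17.2 CPM in the other 2 IPs, 0, 10.1 and 0.447 CPM in the blocked IPs, and 10.6, 1.17 and 0.852 CPM in the inputs. Its call (log2 5.04, adjusted p 0.0171) was lost without IP 1, input 2 or input 3. The remaining 11 kept their call under every omission of 1 library. In a fit of all 9 injured libraries Lrrc49, Magee2, Mrc2, Mpzl3, Ptk2b and N6amt1 were not called and the other 6 of the 12 were, and in a fit of 12 libraries with naive inputs Mpzl3 and N6amt1 were not. A retained-intron transcript of Ptk2b, the focal adhesion kinase relative Pyk2, had 1080, 522 and 109 CPM in the IPs, 0, 5.73 and 2.85 CPM in the blocked IPs, and 14.4, 15.8 and 18 CPM in the inputs. The set also held Lrrc49 (log2 6.62), Mrc2 (5.78), Mpzl3 (5.26), a transcript of Ncam1 (5.15) and Ano3 (5.01).

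**Figure D1:**
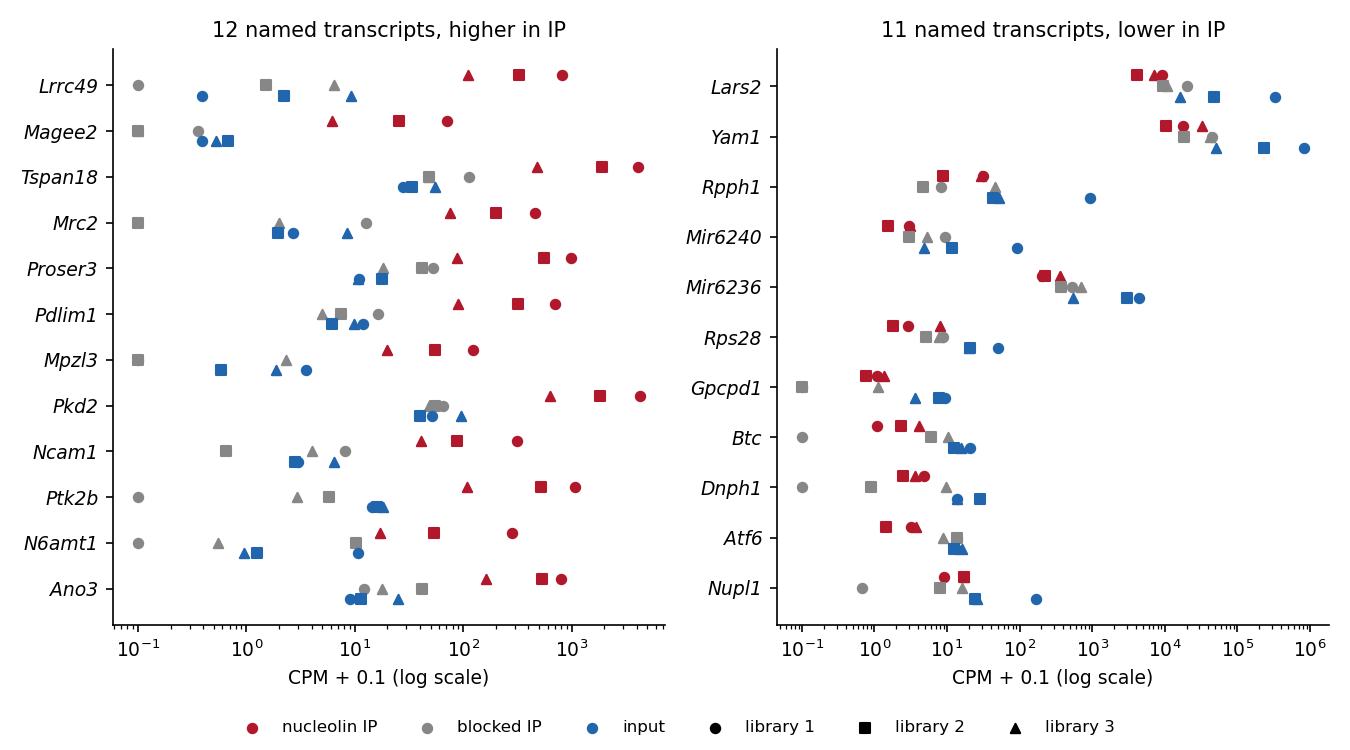
CPM of the 12 named transcripts with the largest enrichment (left) and 11 of the 12 with the largest depletion (right) in each library, on a log axis after adding 0.1, with nucleolin IP in red, blocked IP in grey and input in blue, and symbols for libraries 1 to 3. On the left every IP point lies right of every input point, and for Tspan18 the IPs reach 4097 CPM against 55.2 CPM in the highest input.

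Transcripts with a long CA run had a median above that of the others in IP over input and slightly below it in blocked IP over input. Such runs are common microsatellites in mammalian transcripts, and in RNA they are known as the binding sequence of hnRNP L. The pattern was found after the values had been seen, so its injured values are given as a description without a test. Sequences were at hand for 12603 of the 12840 tested transcripts (98.2%), and 438 of these (3.48%) held an unbroken CA run of at least 24 bases. Among 760 transcripts that were higher in the IP, 223 (29.3%) held such a run. It was present in 1 of 286 lower transcripts (0.350%) and in 214 of 11557 that were not called (1.85%). Of the 116 higher over blocked IP, 65 (56.0%) held one, and of the 99 higher over both blocked IP and input, 62 (62.6%). All the calls over blocked IP behind these 2 shares were lost with the replicate block and in a fit of only the 6 libraries compared. As given above, transcripts could be listed through their IP counts alone, so these 2 shares are a description only.

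The 438 transcripts with a run had a median log2 fold change of 1.94 in IP over input, and 223 of them were higher and 1 lower. Without IP 1, IP 2, IP 3, input 1, input 2 or input 3, the number higher was 123, 108, 283, 106, 88 and 128. In the 11761 transcripts whose longest run was under 12 bases, the median was 0.05, with 464 higher and 282 lower. For blocked IP over input the medians were -0.29 with a run and -0.07 without. The median was larger at each step of run length. It was 0.00 for 10066 transcripts with at most 7 bases, 0.26 for 8 to 11 bases, 0.45 for 12 to 15, 0.75 for 16 to 23, 1.39 for 24 to 31, 1.94 for 32 to 47 and 2.48 for 98 transcripts with 48 or more. The share called higher went the same way, with 3.66% in the shortest group, 40.0% at 24 to 31 bases and 63.3% at 48 or more.

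Runs of CA went with larger values than runs of TG, its complement. A TG run of at least 24 bases occurred in 484 transcripts, of which 51 (10.5%) were higher, with a median of 0.49. Where only the CA run was present (373 transcripts) 202 were higher with a median of 2.12, and where only the TG run was present (416) 36 were higher with a median of 0.42. Runs of at least 24 bases of GA, TC and AT occurred in 145, 170 and 68 transcripts, and 21 (14.5%), 24 (14.1%) and 7 (10.3%) of these were higher. The sources used here do not give whether counting used the strand of the reads, so a transcript and its antisense partner cannot be told apart in these counts.

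**Figure D2:**
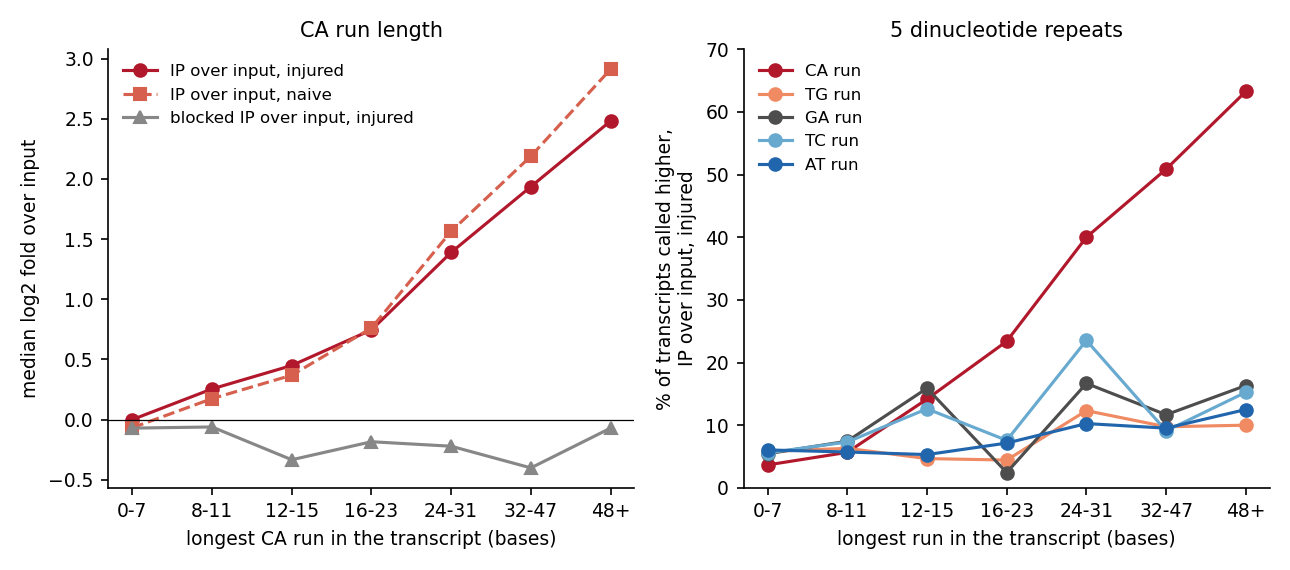
Left, the median log2 fold over input of transcripts grouped by their longest CA run in bases, for nucleolin IP of injured nerve, nucleolin IP of naive nerve and blocked IP of injured nerve. Right, the percentage of transcripts called higher in IP over input of injured nerve, grouped by the longest run of each of 5 dinucleotides. The CA line climbs to 63.3% and the IP medians to 2.48 (injured) and 2.91 (naive), while the blocked medians lie between -0.40 and -0.06.

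Transcripts with the run in a 3′ UTR and in a noncoding transcript had like medians. Of 305 transcripts with the run in the 3′ UTR, 167 were higher, with a median log2 of 1.94. In transcripts annotated as noncoding, which include retained-intron forms, 52 of 121 were higher with a median of 2.17. A 5′ UTR held it in 12, of which 4 were higher with a median of 1.02. Broken repeats showed a like gradient. Among transcripts without an unbroken run of 24 bases, 67 of 304 (22%) were higher where some window of 50 bases held 14 to 17 CA dinucleotides, 22 of 52 (42.3%) at 18 to 21 and 5 of 7 (71.4%) at 22 to 25. Where no window reached 10, 197 of 6979 (2.82%) were higher.

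Medians were higher with a run in every group of transcript length and of input level. Within the 5 length groups of protein-coding transcripts, shortest to longest, the medians with a run were 2.84, 3.08, 2.40, 2.18 and 1.33. Without a run of 12 bases they were -0.52, -0.15, -0.03, 0.14 and 0.25 in the same groups. The shortest group held only 7 transcripts with a run and the longest 134. Over 5 groups of input level of the same transcripts, lowest to highest, the medians were 1.95, 1.87, 2.06, 1.45 and 1.97 with a run and 0.58, 0.13, 0.02, -0.15 and -0.52 without.

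Transcripts of the same gene could be compared where the run lay in only some of them. In 120 genes with a tested transcript of each kind, the transcript with the run had the higher fold in 101, and the median difference was 1.61 log2 units. The run form was higher over input in 57 of these genes and the other form in 8. Pkd2 showed it plainly: the retained-intron form with the run had a log2 of 5.17 and the protein-coding form without it 0.28, at 187 CPM in the IPs and 154 CPM in the inputs (means of 3). For Pdlim1 the values were 5.34 with the run and -0.90 without, and for Smarca5, which encodes a chromatin remodeler, 4.10 and -0.65. Zeb2, a transcription factor gene, went the other way, with 1.23 for the form with a run and 1.85 for the form without. Smarca5 and Zeb2 were chosen after their values were seen, as examples of each direction. In Pkd2, Pdlim1 and Smarca5 the form with the run was a retained-intron transcript and the other form protein-coding. The run forms stood at 62.1, 9.20 and 2.91 CPM in the inputs, the other forms at 154, 139 and 175 CPM. Retained-intron forms were 0.49 log2 units above coding forms of the same gene in the median, as given below. Run, class and input level thus differed together in such pairs. Transcripts of a gene share exons, and the sources used here do not give how reads were divided between them.

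Summed over the 438 transcripts, the share of all counts was 21.0%, 15% and 5.30% in IPs 1, 2 and 3. It was 2.64%, 2.65% and 2.46% in the blocked IPs and 1.11%, 1.85% and 2.57% in the inputs. All 3 IPs were above all other libraries, and IP 3 was far below the other 2. With Yam1, Lars2 and Gm15564 left out of the totals, the inputs were at 2.62%, 2.46% and 2.77%. In naive nerve, whose libraries had no part in the injured comparison, 397 such transcripts took 21.4%, 14.8% and 4.28% of the counts in the IPs, 2.92%, 2.56% and 2.37% in the blocked IPs, and 2.23%, 2.46% and 2.39% in the inputs. The naive means were 13.5% ± 8.65 in the IP and 2.36% ± 0.12 in the input (SD, n = 3 each; exact two-sided permutation test, p = 0.1, the smallest that 3 against 3 allow). Library 3 was again the lowest of the IPs.

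**Figure D3:**
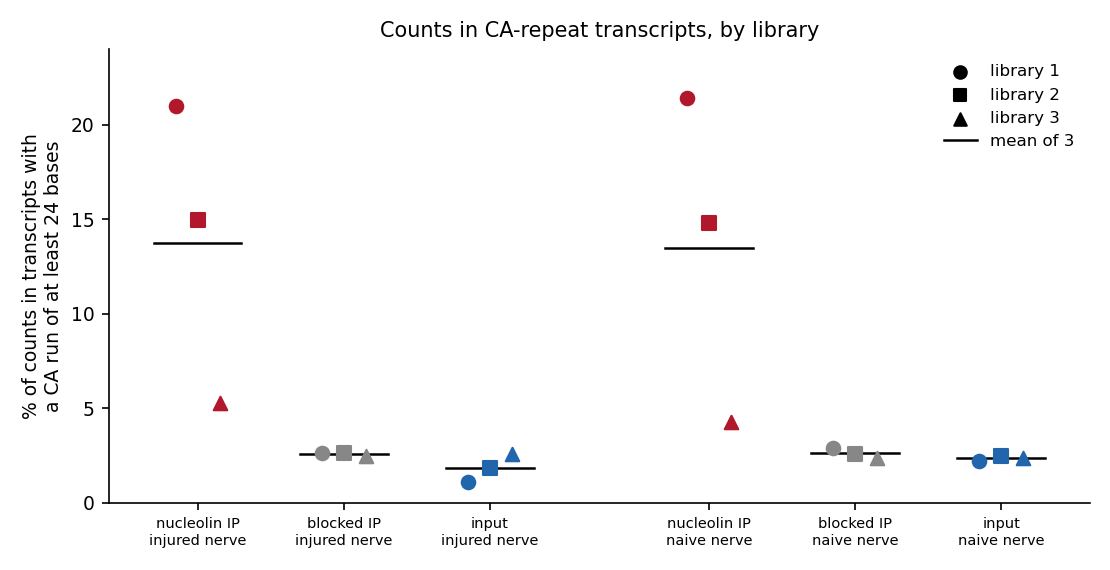
Percentage of each library's counts that fell in transcripts with a CA run of at least 24 bases (438 transcripts in injured and 397 in naive nerve), with symbols for libraries 1 to 3 and a line for the mean of 3. The IPs spread between 4.28% and 21.4%, and every blocked IP and input lies between 1.11% and 2.92%.

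The transcripts that were higher in the IP were divided at a 2-fold difference over the blocked IP. That difference is the gap between the 2 folds over input, so the division itself sets the blocked medians apart, and they are a description only. In 441 of the 760 with a sequence, the IP was at least 2-fold over blocked IP. These had a median log2 of 2.92 in IP over input and -0.17 in blocked IP over input, 208 (47.2%) held a CA run of 24 bases and 98 (22.2%) were retained-intron transcripts. In the other 319 the IP was less than 2-fold over blocked IP. Their medians were 1.89 in IP over input and 1.92 in blocked IP over input. Of these, 15 (4.70%) held a CA run, 268 (84.0%) were protein-coding, and the coding sequence was long, with a median of 2342 bases against 1475 bases in the 441.

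**Figure D4:**
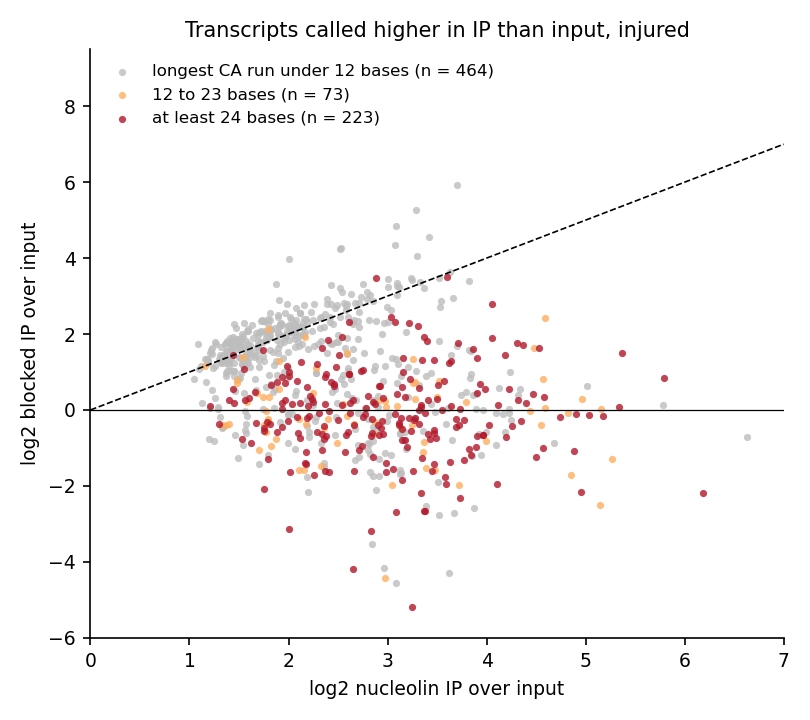
Each point is 1 of the 760 transcripts that were higher in IP than input in injured nerve, at its log2 IP over input (horizontal) and log2 blocked IP over input (vertical), coloured by its longest CA run; the dashed line marks equal values. Points with a run of at least 24 bases (223, red) scatter around 0 on the vertical axis, with a median of -0.11, and a band of points with short runs (grey) follows the dashed line.

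The lists of chromatin regulators and of giant scaffold proteins had medians above that of all genes. Their shares called higher were also above that of all genes, but rest on 3 and 4 genes. None of their members was called in blocked IP over input, where only 1 of all 12970 transcripts tested was called (0.00771%). Lists of genes were written from general knowledge, each gene represented by its most abundant tested transcript. Over all 10690 genes so represented, 683 (6.39%) were higher and 280 (2.62%) lower, with a median of 0.04. Of 31 chromatin regulators, 29 had a positive value, with a median of 0.94 in IP over input and 0.65 in blocked IP over input. Of these 31, 3 (9.68%) were called, all higher. They were Bptf, a subunit of a nucleosome remodeler, Tet2, a methylcytosine dioxygenase, and a retained-intron transcript of Kat6b, a histone acetyltransferase. Bptf had a log2 of 2.41 over input in the IP and 2.31 in the blocked IP. Tet2, which has a CA run of 30 bases, had 1.82 and 0.65. Kat6b, at 4.30 to 13.7 CPM in the IPs, had 4.18 and -0.59.

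Of 34 spectrins, ankyrins and giant scaffold proteins, 4 were higher (11.8%) and 1 lower (2.94%), against 6.39% and 2.62% of all genes. The median was 0.68 in IP over input and 0.41 in blocked IP over input. Pcnt, a centrosomal scaffold protein, and Herc1, a giant ubiquitin ligase, had 1.49 and 1.35 in IP over input and 1.76 and 1.44 in blocked IP over input, with no long run. A retained-intron transcript of Syne2, a nuclear envelope protein gene, had 2.81 and -1.05. Sptbn1, the spectrin beta chain, was lower, at -1.52 in the IP and -1.66 in the blocked IP. The 223 zinc finger genes had 14 higher and 1 lower (6.28% and 0.448%), and 5 of the 14 held a CA run. Among the named were Zfp46 (3.50) and Zfp74 (3.33), with 0.35 and 0.08 in blocked IP. Zfp62 (3.52, and 3.49 in blocked IP) rested on 1.49 to 12.5 CPM in the IPs and was not called with the replicate block (log2 2.86, adjusted p 0.100). Zfp39, with a run of 60 bases, had 3.12 and -0.39, and Zfp503 was lower (-2.07).

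Of 11 nuclear noncoding RNAs tested, 4 were higher in the IP (36.4%) and 1 lower (9.09%), against 6.39% and 2.62% of all genes. Rian, a long noncoding RNA of the imprinted Dlk1 region, had 746, 418 and 209 CPM in the IPs, 13.0, 38.8 and 36.1 CPM in the blocked IPs, and 72.2, 33.8 and 47.2 CPM in the inputs. The IPs stood clear of both (log2 3.17 over input, adjusted p 0.0033, and 3.97 over blocked IP, adjusted p 0.0162, not called with the replicate block), and no CA run of 24 bases was found in it. The other tested transcripts of Rian were not called (-0.11 and 0.78). Neat1, the scaffold RNA of paraspeckles, Snhg11 and Meg3, a neighbour of Rian, had 2.16, 1.89 and 1.10 in IP over input and 1.91, 2.45 and 1.08 in blocked IP over input, where none of the 3 was called. Malat1, at 26326 ± 11054 CPM in IP and 17599.9 ± 7944 CPM in input (SD, n = 3), did not pass the test (log2 0.58, adjusted p 0.518).

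Both lists of Schwann cell genes had medians below that of all genes. Of 19 myelin genes 1 was higher (5.26%) and 0 lower, 9 had a positive value, and the median was -0.43. Among 12 repair Schwann cell genes 3 were higher and 1 lower, with a median of -0.62, and the 3 higher ones, which were the only ones with a positive value, all held a CA run. Ncam1, a neural adhesion molecule, had 2800, 1267 and 428 CPM in the IPs, 49.1, 19.2 and 86.6 CPM in the blocked IPs, and 109.6, 78.7 and 115 CPM in the inputs (log2 3.89, adjusted p 0.0033). Ngfr, the p75 neurotrophin receptor, had 171, 139 and 55.9 CPM in the IPs, 26.7, 18.1 and 30.6 CPM in the blocked IPs, and 24.7, 36.5 and 24.6 CPM in the inputs (log2 2.09, adjusted p 0.0112). For L1cam, another adhesion molecule, IP 3 and input 1 both stood at 34.5 CPM, so the groups overlapped (log2 1.75, adjusted p 0.0426). Btc, the growth factor betacellulin, was lower (-2.73).

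The matrix list had 2 higher of 38 (5.26%), a share near the 6.39% of all genes, and 0 lower. Bgn, the proteoglycan biglycan, had 8097, 5220 and 1941 CPM in the IPs, 633, 185 and 608 CPM in the blocked IPs, and 407, 534 and 697 CPM in the inputs. It stood 3.22 log2 units over input (adjusted p 0.00438) and 3.42 over blocked IP (adjusted p 0.0324, not called with the replicate block). Col5a3, a collagen chain with no long CA run, had 1.60 in IP over input and 1.62 in blocked IP over input. Abundant collagens such as Col1a1 were not called (log2 -0.43, adjusted p 0.509). Cd4, a coreceptor of T cells, was the only one called of 8 lymphocyte and neutrophil genes (12.5%), at 3.07 and with a run of 28 bases. Among motor proteins and adaptors, 2 of 31 (6.45%) were higher, a share near the 6.39% of all genes, and 1 was lower, Dynll1 (-1.42). The 2 higher were retained-intron transcripts with a run, Myo18a (2.93) and Dync1i2 (2.41).

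Fat cell genes had positive values in IP over input and larger ones in blocked IP over input. All 7 tested had a positive value and 3 were called higher (42.9%, against 6.39% of all genes). The medians were 1.61 in IP over input and 3.99 in blocked IP over input. Cfd, the complement factor adipsin, had 451, 341 and 331 CPM in the IPs, 1636, 1994 and 782 CPM in the blocked IPs, and 57.5, 21.3 and 36.9 CPM in the inputs. The blocked IPs lay above the IPs, and these above the inputs. Cfd was the 1 transcript called in blocked IP over input (log2 5.26, adjusted p 0.00707), and its IP over blocked IP, -1.97, did not pass the test (adjusted p 0.071). Plin4, a lipid droplet protein, and the hormone gene Adipoq had 3.08 and 2.01 in IP over input and 4.85 and 3.99 in blocked IP over input, and Plin4 was not called with the replicate block (log2 2.65, adjusted p 0.0711). The summed level of the list was 2256, 2712 and 1838 CPM in the IPs, 4971, 9288 and 2801 CPM in the blocked IPs, and 1161, 1198 and 1496 CPM in the inputs. In bulk extracts, more cells of a type and more RNA per cell cannot be told apart, nor can either be told here from RNA that the beads hold. Of 16 endothelial and pericyte genes 3 were higher (18.75%). Egfl7 and Pecam1, as retained-intron transcripts, had 3.29 and 3.19 in the IP and 4.05 and 2.06 in the blocked IP, and Rgs5, a pericyte marker, had 2.25 and 0.45.

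**Figure D5:**
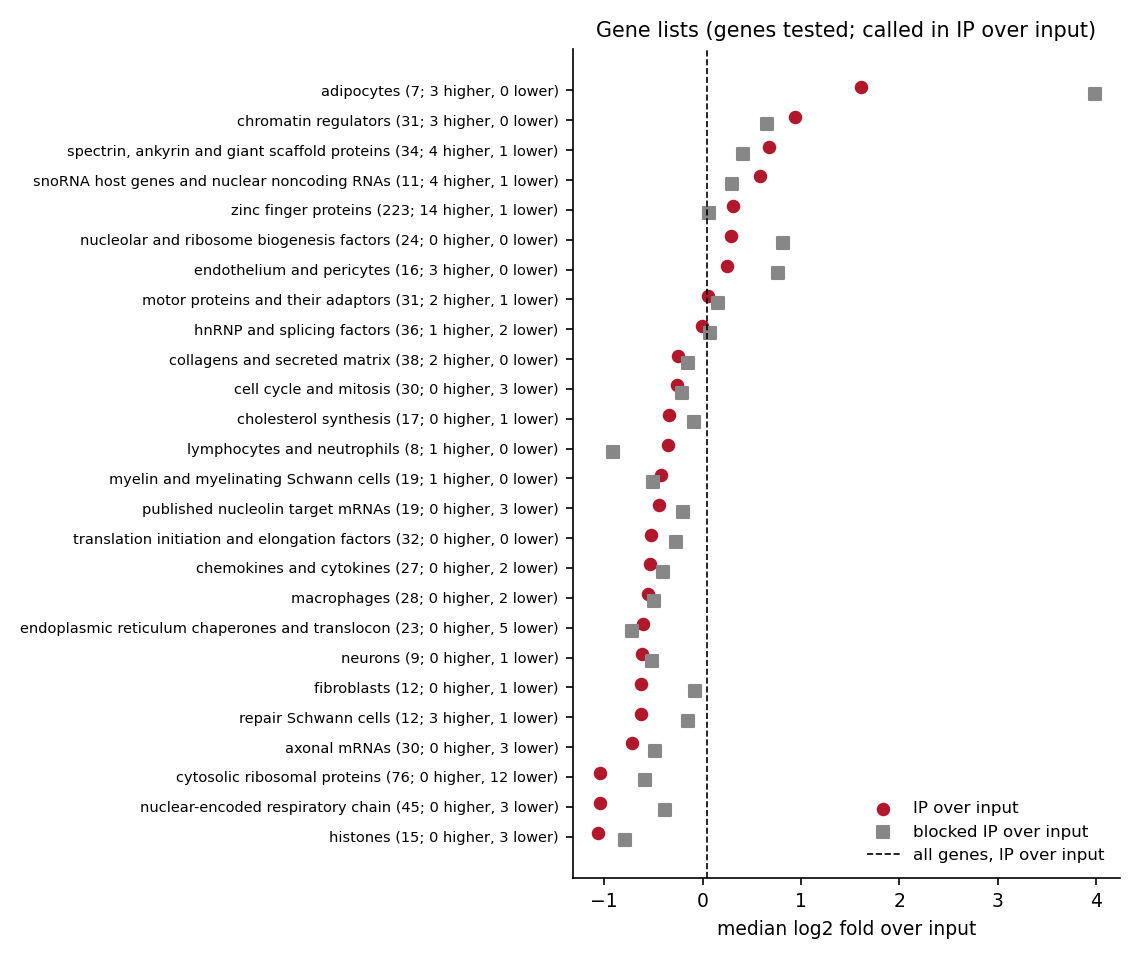
Median log2 fold over input of each gene list in nucleolin IP (red circles) and blocked IP (grey squares) of injured nerve, with the number of genes tested and called in IP over input beside each name; the dashed line is the median of all genes in IP over input, 0.04. Adipocyte genes stand at 1.61 in IP and 3.99 in blocked IP, and ribosomal protein genes at -1.04 in IP and -0.58 in blocked IP.

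The transcripts called lower in the IP were mostly mRNAs, with a few structured RNAs. The protein-coding ones had a median length of 1968 bases, against 3034.5 over all tested. The median input level of the lower calls was 194 CPM, against 11.5 CPM over all tested. Over 5 groups of input level, lowest to highest, 0, 1, 10, 43 and 202 protein-coding transcripts were lower. Lower calls were thus few at low input. Some were long, such as Sptbn1 (9107 bases) and Son (7945 bases). The direction of these lists is relative to the bulk. Over all genes 2.62% were lower. Of 76 cytosolic ribosomal protein genes, 12 were lower (15.8%) and 0 higher, and 7 had a positive value. The median was -1.04 in the IP and -0.58 in the blocked IP. Rps12 had 992, 928 and 1078 CPM in the IPs, 1429, 799 and 1291 CPM in the blocked IPs, and 4057, 3975 and 2668 CPM in the inputs. IPs and blocked IPs overlapped, and both lay below the inputs (log2 -1.84 and -1.60, adjusted p 0.0112 for the IP). Among 45 nuclear-encoded respiratory chain genes 3 were lower (6.67%), Ndufb5 (-1.82), Sdhd (-1.48) and Ndufb3 (-1.19). These 3 had -1.62, -1.18 and -0.23 in blocked IP over input. The median of the list was -1.04 in the IP and -0.38 in the blocked IP. Of 23 endoplasmic reticulum chaperones and translocon genes 5 were lower (21.7%), among them the disulfide isomerases Pdia3 (-1.54) and Pdia4 (-1.42) and the translocon subunit Sec61b (-1.58). These had -1.21, -0.86 and -1.08 in blocked IP over input. The median of the list was -0.61 in the IP and -0.72 in the blocked IP. Of 15 histone genes 3 were lower (20.0%), Hist1h1c, Hist1h2bc and H1f0, with a median of -1.06 in the IP and -0.78 in the blocked IP.

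Translation factors had 0 called of 32 by edgeR, with a median of -0.52, while 10 were lower and 1 higher at an unadjusted p under 0.05 and DESeq2 called 6 lower. Macrophage genes had 2 lower of 28 (7.14%), Spp1 (-1.87) and the complement subunit C1qc (-1.66). Their median was -0.55 in the IP and -0.49 in the blocked IP. In cell cycle genes 3 of 30 were lower (10.0%), and in chemokines and cytokines 2 of 27 (7.41%). In fibroblast genes it was 1 of 12 (8.33%), in cholesterol synthesis 1 of 17 (5.88%) and in neuron genes 1 of 9 (11.1%). Over all genes it was 2.62%, and these shares rest on 1 to 3 genes each. Lists of 5 muscle and 4 red blood cell genes had 0 called by edgeR, with 0 and 2 at an unadjusted p under 0.05 and 0 and 2 lower by DESeq2. Splicing factors had 1 higher and 2 lower of 36 (2.78% and 5.56%). Srrm2, a long serine- and arginine-rich protein of the spliceosome, stood at 1.91 in the IP and 2.00 in the blocked IP. Srsf2 (-1.46) and Son (-1.21) were lower. When counts were scaled to library totals, 4 of the 36 lower calls named from the lists remained, those of Lars2, Yam1, Gm15564 and Rpph1. The medians of the matrix, myelin, cytokine, cell cycle, cholesterol, lymphocyte, published-target and splicing lists were then 0.18, 0.02, 0.04, 0.30, 0.05, 0.07, 0.04 and 0.55, that is, above 0. Under that scaling 30 of the 31 higher calls named from the lists remained, all but that of Meg3.

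Single libraries decided many of the calls named from the lists. Without IP 1, IP 2, IP 3, input 1, input 2 or input 3, 20, 13, 31, 14, 11 and 16 of the 31 higher calls remained, and 4, 0, 36, 1, 1 and 12 of the 36 lower calls. A fit of all 9 injured libraries kept 8 of the 31 and 2 of the 36, and a fit of 12 libraries with naive inputs 16 and 16. The calls of Rian, Bgn, Ncam1, Cfd, Zfp46 and Zfp74 were among those that remained in all these cases, and those of Pecam1 and Cd4 remained without any single library but not in the fits of 9 and 12. Meg3, L1cam and Zfp62 were not called with RLE or upper quartile scaling, nor Herc1 with upper quartile scaling.

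The largest depletions were of very abundant input RNAs and short noncoding RNAs. The transcript listed as Yam1, a noncoding RNA of chromosome 17, had 18141, 10404 and 32844 CPM in the IPs, 44481, 18374 and 41935 CPM in the blocked IPs, and 827087, 232107 and 50919 CPM in the inputs. Input 3 was far below the other inputs and near the blocked IPs. These CPM were scaled with TMM factors of 0.462, 0.845 and 1.06 in inputs 1, 2 and 3. They are not shares of a library's counts, and the value of input 1 overstates its share. The log2 fold change was -4.18 in IP over input (adjusted p 0.0292; -3.75 and adjusted p 0.0758 with the replicate block) and -3.41 in blocked IP over input. Lars2, the mitochondrial leucine tRNA synthetase gene, had 9313, 4142 and 7062 CPM in the IPs and 333833, 48135 and 16091 CPM in the inputs (-4.28). It overlaps the antisense gene Gm15564, which moved with it, so both values are uncertain. Yam1, Lars2 and Gm15564 formed a list of possible sinks for reads of ribosomal RNA, and all 3 were lower. Whether their counts came from ribosomal RNA was not tested, so they may not measure the named genes. Mir6236 (-3.33) and Mir6240 (-3.88) are short annotated hairpins with reads that near-identical copies could share.

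Other depleted transcripts were Rpph1, the RNA of ribonuclease P (-3.91), with 31, 8.77 and 28.9 CPM in the IPs and 938, 42.2 and 52.5 CPM in the inputs, and a transcript of Rps28 (-2.83). A retained-intron transcript of Atf6, a sensor of endoplasmic reticulum stress, was the one of the 12 that was much lower in the IP (-2.35) than in the blocked IP (-0.21). Gpcpd1, Btc, Dnph1 and Nupl1 had -2.77 to -2.33, and Nupl1 was not called with the replicate block (adjusted p 0.138). No transcript of the 12 had a CA run of 24 bases, against 6 of the 12 most enriched. Without IP 1, IP 2, input 1, input 2 or input 3, 2, 0, 1, 3 and 7 of the 12 remained called, and without IP 3 all 12. In each of the fits of 9 and of 12 libraries 1 of the 12 remained called, and DESeq2 did not call Rpph1. Under scaling to library totals 5 of the 12 remained, Lars2, Yam1, Rpph1, Mir6240 and Mir6236.

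Longer protein-coding transcripts had higher values in the IP. In 5 groups of equal size by spliced length, from the shortest to the longest, the median log2 of IP over input was -0.52, -0.12, 0.01, 0.17 and 0.32. For blocked IP over input it was -0.26, -0.01, 0.01, 0.05 and 0.09. Of the shortest group (at most 1664 bases, 1870 transcripts) 42 were higher and 97 lower, and of the longest (1869 transcripts) 155 were higher and 16 lower. The difference between the longest and the shortest group was 1.22 in IP 1, 1.19 in IP 2 and 0.19 in IP 3. Retained-intron transcripts had a median of 0.53 (118 higher and 5 lower of 1565), against 0.00 in protein-coding ones (550 higher and 256 lower of 9342). In blocked IP over input the medians were -0.38 and -0.03. In 724 genes with both kinds, the retained-intron form was 0.49 log2 units higher in the median, and in the 223 genes where both forms had at least 5 CPM in input, 0.20.

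The study's candidates did not pass the test in the 6-library comparison. Kpnb1 had 244, 285 and 322 CPM in the IPs, 163, 218 and 293 CPM in the blocked IPs, and 366, 370.1 and 402 CPM in the inputs. All IPs lay below all inputs, and the log2 fold change of -0.42 (SE 0.29) did not pass the test (adjusted p 0.382) and was 0.06 under scaling to library totals. Mtor, the growth kinase, had 28.8, 20.7 and 34.4 CPM in the IPs, 15.3, 33.6 and 29.4 CPM in the blocked IPs, and 15.8, 8.84 and 19.9 CPM in the inputs (log2 0.91, adjusted p 0.224). The IPs were above the inputs and overlapped the blocked IPs. Ncl, the mRNA of nucleolin itself, had 4102, 1504 and 929 CPM in the IPs, 1461, 718 and 580.0 CPM in the blocked IPs, and 1116, 591 and 462 CPM in the inputs (log2 1.59, adjusted p 0.0839). Within each library number the IP was above the input, and with the replicate block Ncl passed (log2 1.41, adjusted p 0.0286). It also passed with DESeq2 (adjusted p 0.0415) and without IP 3 (log2 1.96, adjusted p 0.00221). Rhoa, a cytoskeletal GTPase, had a log2 of -1.11 (adjusted p 0.0701) and passed as lower with the replicate block (-1.19, adjusted p 0.0432), with DESeq2 (adjusted p 0.0238) and without IP 3 (-1.51, adjusted p 0.000606). Stat3, an injury-signalling transcription factor, had 1.62 (adjusted p 0.247). Ptbp1 was not among the tested transcripts.

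Of 19 mRNAs published as bound by nucleolin in other cells, 0 were higher and 3 lower by edgeR (15.8%, against 2.62% of all genes). The median was -0.45 in the IP and -0.20 in the blocked IP. At an unadjusted p under 0.05, 2 were higher and 5 lower, and DESeq2 called 1 higher and 3 lower. The 3 lower were Hmox1, heme oxygenase 1, with 272, 345 and 662 CPM in the IPs, 527, 364 and 906 CPM in the blocked IPs, and 1282, 1685 and 984 CPM in the inputs, Gadd45a (-1.38) and Ccnd1, cyclin D1 (-1.27). Bcl2, whose AU-rich element is a known nucleolin site, had 286 ± 142 CPM in IP, 98.7 ± 12 CPM in blocked IP and 143 ± 33.0 CPM in input (SD, n = 3; log2 1.00, adjusted p 0.132). Of 30 axonal mRNAs 3 were lower (10.0%), Cfl1 (-1.75), Tubb3 (-1.72) and Dynll1 (-1.42), with a median of -0.72 in the IP and -0.48 in the blocked IP. None of the 24 nucleolar and ribosome biogenesis genes was called by edgeR, with a median of 0.29 in the IP and 0.82 in the blocked IP, while 7 were higher and 2 lower at an unadjusted p under 0.05 and DESeq2 called 2 higher.

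The pattern was not shown to depend on injury. In naive nerve, 591 of 10888 transcripts (5.43%) were higher in IP than input and 81 (0.744%) lower, 6.17% in all. Of the 579 higher ones with a sequence, 198 (34.2%) held a CA run, against 397 of 10614 tested (3.74%). Among transcripts with a run of 48 bases or more, the median log2 of IP over input was 2.48 in injured nerve and 2.91 in naive nerve. The change of IP over input between injured and naive nerve, tested as an interaction in edgeR, passed in 0 of 10888 transcripts (0%), with 159 higher and 180 lower at an unadjusted p under 0.05. DESeq2 called 1 higher and 1 lower. The smallest adjusted p was 0.525. The median SE of that change was 0.79 log2 units, and on simulated counts changes of 2 log2 units upward were recovered in 7 of 50 transcripts, those of 4 in 42 of 50.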

How the data were processed

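The deposited values were whole-number counts per Ensembl transcript, not normalized, as the authors gave them in separate tables for injured nucleolin, naive nucleolin and input libraries, per the file headers. The submitters' processing notes name CASAVA 1.8.2, edgeR and the builds mm10 and GRCm38. Aligner, counting tool and use of strand: not given in the sources used here. Every transcript of the injured nucleolin table had at least 5 counts in all 3 IPs or all 3 blocked IPs, and every transcript of the input table at least 5 in inputs 2 and 3, so RNAs absent from those libraries are missing from the comparison. Transcripts in only 1 of the 2 injured tables held 0.201% to 0.775% of a library's counts. The authors' other per-sample columns, 48 in these tables, were not used.

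Counts of 9 injured libraries were scaled together by TMM. IP and input (6 libraries) were compared in R 4.3.3 with edgeR 4.0.16 (filterByExpr, quasi-likelihood test, two-sided, Benjamini-Hochberg adjustment over all tested transcripts, threshold 0.05). Blocked IP entered a fit of the 9 libraries, and the change with injury a fit of 12, in which naive IP over naive input was also taken. SEs are those of the fitted log2 fold changes. CPM values use TMM-scaled library sizes and are levels, not per length. DESeq2 1.42.0 was an alternative. Simulated counts tested the fits: of 50 transcripts each set at -4, -2, 2 and 4 log2 units, 49, 20, 37 and 50 were recovered in IP over input, with 4 false calls.

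The main fits did not use replicate numbers as pairs, and their adjusted p-values are unpaired. Deviations of same-numbered IP and input libraries from their group means correlated at 0.164, 0.152 and 0.210, all over 0.1. An alternative fit with the replicate numbers as a block is therefore given beside the main one. Classes, lengths and sequences came from GENCODE transcripts on GRCm38, which held 12780 of the joined transcripts (98.1%). CA, TG, GA, TC and AT runs are the longest unbroken alternations of the 2 letters, in either phase, on the transcript strand; CA and TG are complements of each other, as are GA and TC.

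The members and gene lists were chosen with earlier results of these data known, and the search for repeats was added after the values had been seen. Named transcripts are the 12 highest and 12 lowest fold changes past the threshold with no overlap of IP and input libraries, at least 5 CPM in the higher group, 1 per gene, predicted genes left out; the study's candidates; and up to 4 called members of each list in each direction. Each gene of a list stands for 1 transcript, that of largest average CPM in the 6 libraries. Cd68, Nefl, Malat1, Col1a1, Bcl2, Smarca5 and Zeb2 were added after their values were seen. A few genes are not reported here.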

Additional observations from a re-analysis of the deposited data

How the results depend on the processing

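The numbers of calls depended on the libraries and the tool more than their direction did. For IP over input (772 higher, 291 lower), scaling to library totals gave 1173 and 13, DESeq2 1334 and 754, a fit of all 9 injured libraries 127 and 21, and a fit of 12 with naive inputs 286 and 139. The replicate block gave 905 and 546, and the other scalings and filters stayed within 1.5-fold. Omitting 1 library gave 186 to 1657 higher and 4 to 1397 lower. For blocked IP over input (1 and 0), library totals gave 247 and 10, DESeq2 610 and 239, the 6 libraries alone 0 higher, and the replicate block 50 and 3, with 0 to 435 higher and 0 to 893 lower when 1 library was omitted. For IP over blocked IP (117 and 0), library totals gave 69 higher, DESeq2 534 and 50, and the 6 libraries alone and the replicate block 0 higher, with 0 to 974 higher and 0 to 59 lower on omission. For the change with injury (0 and 0), DESeq2 gave 1 and 1, and omission 0 to 3 higher and 0 lower. The cause was not tested.

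The difference in median log2 between transcripts with and without a CA run (1.89) ranged from 1.46 to 2.27, with 64 to 284 of the transcripts with a run called higher and 0 to 5 lower. That between the longest and shortest length group (0.84) ranged from 0.78 to 0.92, and that between retained-intron and protein-coding transcripts (0.53) from 0.38 to 0.66. The difference between the highest and lowest GC group (0.15) ran from 2.8e-06 to 0.25 when 1 library was omitted. Of 1648 recomputed values of named transcripts, 1190 kept their direction and side of the threshold, 448 kept the direction only, 9 newly passed, and 1 changed sign: Kpnb1, 0.0638 under library totals (adjusted p 0.963). Without IP 3 and input 1 together, chosen after seeing the data, 1748 transcripts were higher and 1415 lower.

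Depth limits the rarest transcripts: blocked IP 1 listed 15.8% of the joined transcripts at 0 counts and input 1 listed 4.15%. Folds against inputs below 1 CPM rest on a few counts. PCR duplicates could not be seen in these tables.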
